A study of Mus musculus with 157 samples.

Results

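The 8 genes described here encode the machinery by which a cell shows peptides on MHC class II molecules: Cd74, H2-Aa, H2-Ab1, H2-Eb1, H2-DMa, H2-DMb1, H2-Ob and Ciita. They were chosen by symbol, as 8 of 36102 genes in the deposited tables. The atlas held 16 wild-type mouse blood and marrow cell types, each with 2 libraries of input RNA and 2 of RNA precipitated with an anti-m6A antibody (IP). The types were named in the labels as LT.HSC, ST.HSC, LMPP, MPP, CLP, GMP, CMP, MEP, MkP, Erythroid, Neutrophil, Monocyte, DC, B_cell, CD4 cell and CD8 cell, all untreated. A second set compared Mettl3 -/- with wild type, untreated, in MkP, MEP, GMP, CMP, MPP, ST.HSC and LT.HSC, with 2 input and 2 IP libraries per genotype and type. The remaining knockout set compared Igf2bp2 -/- with wild-type LT.HSC, with 2 libraries each. Wild-type cells of 6 types were also labelled with 4-thiouridine for 3 h, at 100 mM in the labels, with 2 libraries per type. LT.HSC and MkP were labelled at 10 uM for 24 h and then chased, with 2 libraries per chase time for LT.HSC and 1 for MkP. The labels used here give no strain, age, deleted exons, Cre driver or sort gates. The labels do not say that libraries came from separate animals or cultures, so p-values measure the spread between these libraries, which may be technical.

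Class II molecules are pairs of an alpha and a beta chain that present peptides from the endosome to CD4 T cells. B cells and dendritic cells are their best known carriers. The invariant chain, encoded by Cd74, escorts new pairs and plugs the groove. The DM pair swaps the remaining plug for peptide, and the DO pair, with H2-Ob as its beta chain, restrains DM. CIITA is the coactivator of these genes. It does not bind DNA itself but sits on the factors that bind their promoters, RFX at the X box and NF-Y at the Y box. METTL3 is the catalytic subunit of the enzyme that writes N6-methyladenosine (m6A) into RNA, and IGF2BP2 is an m6A reader that can stabilise RNA.

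Of the 8 genes, 6 lie together on chromosome 17, from H2-DMa at chr17:34119693-34139101 to H2-Eb1 at chr17:34305867-34316674 (GRCm38.p6, gene spans from RefSeq). Ciita lies at chr16:10480014-10531064. RefSeq promoter sequence of the same build was matched for H2-Aa, H2-DMa, H2-DMb1, H2-Eb1 and H2-Ob. In 4 of these 5 genes, X-box-like letters were followed on the gene's strand by Y-box letters, and these stretches are shown because they are what CIITA's partners are known to read. Capitals mark the motif TNGNAAC on the left and GATTGG on the right, 5′ to 3′ on each gene's strand.
H2-Aa, chr17:34287857-34287916, minus strand: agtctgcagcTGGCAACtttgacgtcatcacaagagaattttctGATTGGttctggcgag
H2-DMb1, chr17:34153085-34153144, plus strand: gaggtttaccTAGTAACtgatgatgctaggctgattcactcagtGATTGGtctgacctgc
H2-Eb1, chr17:34305764-34305822, plus strand: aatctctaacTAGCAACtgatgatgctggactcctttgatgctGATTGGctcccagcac
H2-Ob, chr17:34238806-34238862, plus strand: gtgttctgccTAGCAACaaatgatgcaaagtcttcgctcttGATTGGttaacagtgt

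The motifs start 31 to 34 bases apart in these stretches, and GATTGG starts between 62 and 49 bases before the annotated gene start. Over windows from 250 bases before to 50 bases after the start, TNGNAAC was found in 35.2% of 32851 promoters on either strand and GATTGG in 16.1%. The ordered pair within 40 bases was found in 0.411% on either strand and in 0.228% on the gene's strand, and the motifs did not overlap. These letters were written with the class II promoters in view, so the matches describe the sequences and are no test. H2-DMa had no such pair in either of its windows. The related genes H2-DMb2, H2-Eb2 and H2-Oa had none either.

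Depth was 8225437 to 21530672 reads in the atlas inputs and 3420411 to 20229330 reads in the Mettl3 inputs. Replicate libraries correlated across genes at r = 0.905 to 0.982 and 0.731 to 0.941, respectively. Levels are the deposited normalised read counts, which set libraries of a table on one scale but do not correct for transcript length, so genes are not ranked against each other. In bulk RNA, fewer cells of a type and less RNA per cell cannot be told apart. Cell type markers mostly followed the labels, with exceptions that touch the results. The DC libraries held summed B cell markers of 247860 and 177129, against 1369940 and 1007140 in B_cell. The CLP libraries had higher summed dendritic cell markers (44034 and 35389) than the DC libraries (22808 and 21997), and held mast cell and basophil markers of 383938 and 93838. In the Monocyte libraries the summed neutrophil markers lay above those of the Neutrophil libraries. Reads of H2-DMb1 and H2-Eb1 may be shared with their near copies H2-DMb2 and H2-Eb2.

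Across the 16 cell types the members spanned a wide range, and B_cell and DC stood at the top for 6 of 8. Differences among types passed the limma F test, with an adjusted p under 0.05 (called, below), for all 8 members. The same test called 92.6% of 17165 genes. Together the members made up 4.99% and 5.42% of reads in the B_cell libraries and 6.35% and 5.25% in DC. In the other 14 types they made up 0.0308% to 0.929%, lowest in MEP and highest in CLP.

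Cd74, the invariant chain gene (chr18:60803849-60812652), reached 645704 and 819650 in B_cell and 284121 and 223917 in DC. Monocyte (18902 and 40197), CLP (41492 and 16164), CMP (20859 and 14374), Erythroid (17293 and 13380) and LMPP (16619 and 4838) formed a middle group whose libraries overlapped. MPP had 9772 and 11522, ST.HSC 5556 and 4412, CD8 4859 and 4849, LT.HSC 3212 and 2291, Neutrophil 2754 and 2257, and CD4 2265 and 1913. At the bottom were MkP with 561 and 2669, MEP with 920 and 572, and GMP with 367 and 489. The mean in B_cell was 1713 times that in GMP. In this order B_cell differed from DC and DC from Monocyte, pairs of types between which 36.6% and 45.5% of all genes were called, and no other neighbouring types were called different.

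The classical chain genes followed the same course. H2-Aa, the alpha chain of the I-A molecule, stood at 112865 and 169975 in B_cell, 93747 and 75127 in DC, and 131 and 142 in GMP. Its libraries in B_cell lay above those in DC without a call. H2-Ab1, the beta chain of I-A, was at 177937 and 150828 in DC and at 167603 and 53789 in B_cell, the widest gap between B_cell libraries of any member. GMP, its lowest type, still had 942 and 1104. H2-Eb1, the beta chain of I-E, stood at 58297 and 108100 in B_cell, 80846 and 59864 in DC, and 42.3 and 51.1 in GMP. For H2-Ab1 the step from B_cell to CLP was called, for H2-Aa that from DC to Monocyte, and for H2-Eb1 that from DC to CLP (26.7%, 45.5% and 23.7% of all genes called, respectively). No other neighbours were called for these 3 genes. The 2 MkP libraries differed by 4.76 times for Cd74, 6.34 times for H2-Aa and 6.90 times for H2-Eb1, the widest gaps of these genes within a type.

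The DM and DO genes, whose products edit peptides, had flatter and different profiles. H2-DMa was highest in CLP (10388 and 10334), close to B_cell (10595 and 8083) and DC (8619 and 7236). It was lowest in Erythroid (543 and 498), a range of 19.9 times between type means. H2-DMb1 was highest in DC (10356 and 9079) and lowest in CD4 (174 and 217). GMP, at the bottom for the classical chains, held 4118 and 2918 of H2-DMa and 3542 and 2696 of H2-DMb1, within the range of LT.HSC, MPP and CMP. For both DM genes no neighbouring types in the order were called different. H2-Ob was highest in B_cell (4527 and 3446) and DC (2684 and 2331), followed by MPP (1134 and 1415) and ST.HSC (879 and 1105), and lowest in Neutrophil (29.9 and 37.7). Of its 15 steps between neighbours 3 were called, DC to MPP, MkP to LT.HSC and MEP to Neutrophil, where 30.6%, 52.1% and 45.6% of all genes were called. LT.HSC had 236 and 98.1, below ST.HSC by 2.69 on the log2 scale (adjusted p = 4.93e-05, limma). No other member was called between these stem cell types, where 3.97% of genes were.

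Ciita, the coactivator gene, was highest in DC (1642 and 1252), then B_cell (387 and 735), and both steps from DC to B_cell and from B_cell to CLP (143 and 111) were called. Stem and early progenitor cells carried a low level. LT.HSC had 61.3 and 85.0, ST.HSC 91.6 and 68.6, MPP 87.7 and 119, LMPP 88.8 and 53.2, and CMP 97.3 and 92.2. Erythroid libraries held 117 and 44.8, and Monocyte 39.8 and 34.7. GMP had 1.51 and 4.01, MkP 2.57 and 10.2, Neutrophil 6.23 and 8.70, and MEP 13.3 and 10.5. Libraries of GMP, MkP, Neutrophil and MEP all lay below those of the other types, with CD4 (14.2 and 28.4) and CD8 (32.1 and 19.7) next.

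**Figure D1:**
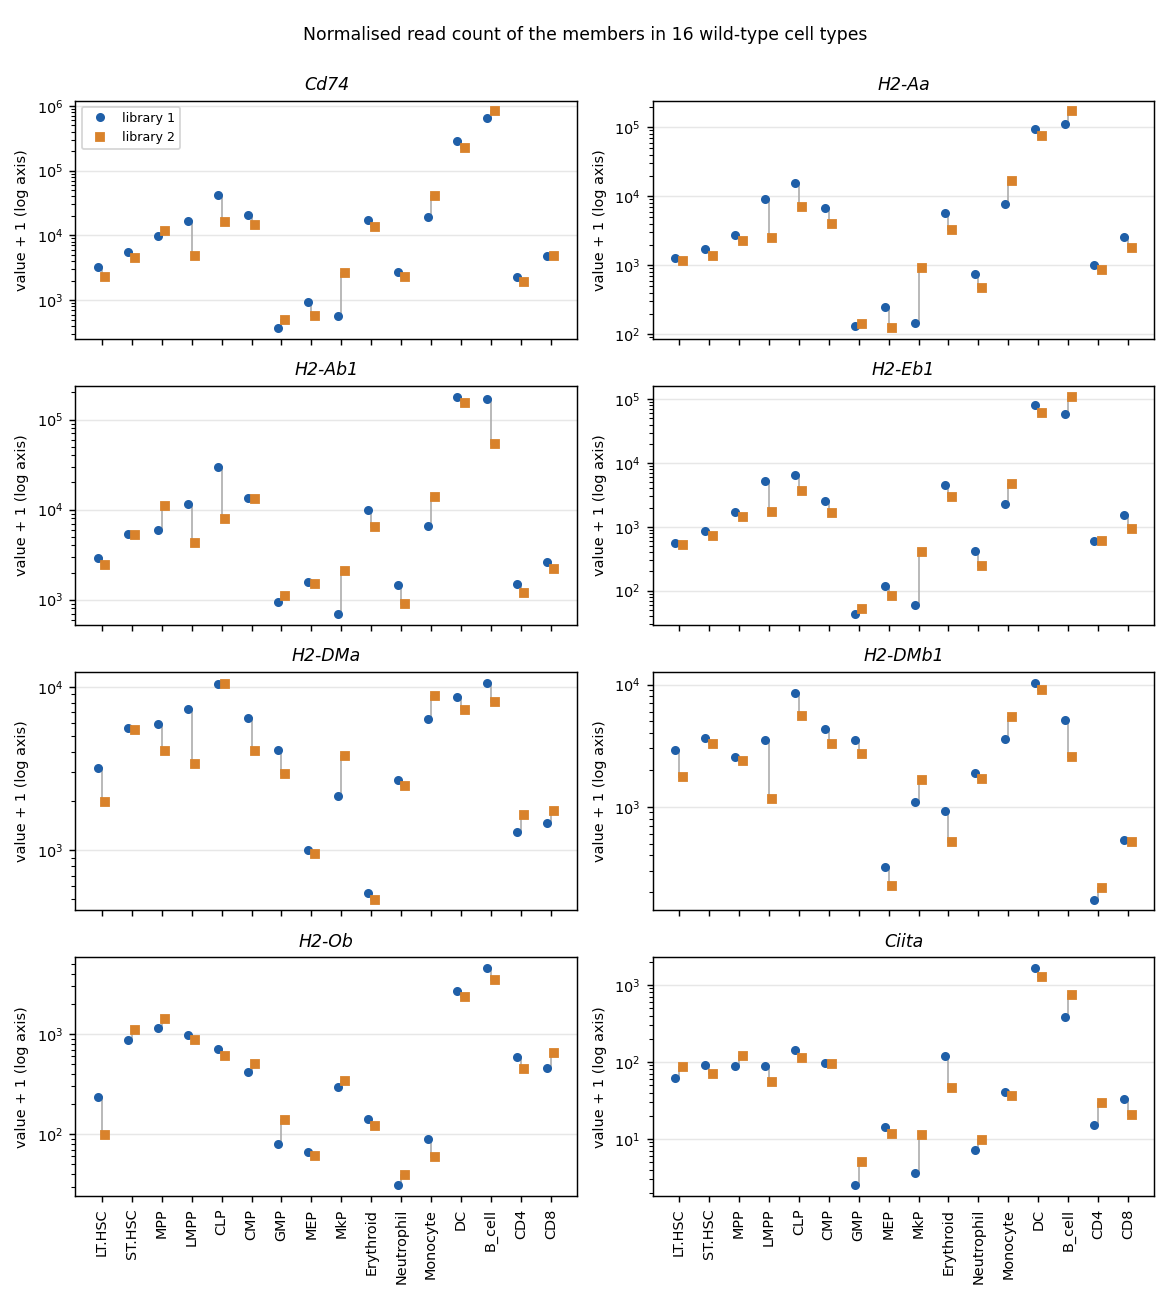
Normalised read count plus 1 (log axis) of each member in the 2 libraries of 16 wild-type cell types, library 1 as circles and library 2 as squares. DC and B_cell points stand highest for Cd74, the 3 classical chain genes, H2-Ob and Ciita, and GMP points lie low for these genes but not for H2-DMa and H2-DMb1.

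As a description over the 16 type means, Cd74, H2-Aa, H2-Ab1 and H2-Eb1 correlated with each other at r = 0.948 to 0.991, while all 28 pairs of members ranged from 0.343 to 0.991. These points share libraries and scaling, and no p is given. The search for like profiles covered 11471 genes, the members included, and members were not listed as hits. Most like the members' mean was the profile of Tnfrsf13c, the receptor for the B cell survival factor BAFF (r = 0.915). Next came the DM beta chain gene H2-DMb2 (0.883), Rasgrp3 (0.874) and the antibody segments Igkv4-63 (0.865) and Ighv14-2 (0.860). Tnfrsf13c was also nearest to Cd74, H2-Aa and Ciita, H2-DMb2 to H2-Ab1, and Rasgrp3 to H2-Eb1. For H2-Ob the nearest gene was its DO partner H2-Oa (r = 0.929), for H2-DMa Rasa4 (0.914) and for H2-DMb1 Fgd2 (0.924).

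B_cell libraries were set against CLP, the lymphoid progenitor, to ask how class II RNA differs along the B lineage. Cd74 was higher in B_cell by 4.81 on the log2 scale (SE 0.59, limma adjusted p = 1.93e-06), H2-Eb1 by 4.02 (SE 0.61, adjusted p = 2.90e-05) and H2-Aa by 3.73 (SE 0.64, adjusted p = 0.000128). H2-Ab1 (2.64), H2-Ob (2.60) and Ciita (2.07) were higher as well, and in all 6 both B_cell libraries lay above both CLP libraries. Such separation was not counted over all genes. H2-DMa (-0.16, adjusted p = 0.780) and H2-DMb1 (-0.92, adjusted p = 0.113) were not called. Of all genes, 26.7% were called, 13.3% as higher. Of the other class II genes 3 of 4 were higher, H2-Eb2 (4.77), H2-DMb2 (4.68) and H2-Oa (2.45). None of the 8 genes for the promoter factors was called, with a median of 0.45 against 0.04 over all genes. Of 14 known regulators of Ciita 5 were higher, led by the B cell factors Pax5 (7.28) and Ebf1 (5.81) and by Irf4 (3.21), and 3 were lower. The processing genes went the other way, with 5 of 10 lower, led by the endosome tetraspanin Cd63 (-4.31) and the proteases Ctsb (-2.97) and Ctsd (-2.24). Costimulation genes were higher in 3 of 6 cases (Cd40, 3.24, Icosl, 1.91, and Cd274, 1.89). In the same comparison 11 of 12 B cell markers were higher, and 10 of 12 dendritic cell, 9 of 12 monocyte and macrophage and 7 of 8 mast cell and basophil markers were lower. Their part in the result was not tested.

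DC and B_cell, the presenting types, differed less in these genes. H2-DMb1 was higher in DC by 1.42 (SE 0.42, limma adjusted p = 0.0109), and so was Ciita by 1.42 (SE 0.56, adjusted p = 0.0499). Cd74 was lower in DC by -1.53 (SE 0.59, adjusted p = 0.0452). The remaining 5 members were not called, with differences from -0.72 (H2-Aa) to 0.79 (H2-Ab1). Of all genes 36.6% were called, 20.7% as higher and 16.0% as lower, and 3 of 8 members is near that share. With libraries rescaled to a common upper quartile Ciita was not called (1.23, adjusted p = 0.0971), with edgeR on recovered reads Cd74 was not (-1.43, adjusted p = 0.0712), and with no filter on low values neither was (adjusted p = 0.0605 for Ciita and 0.0740 for Cd74). The count was 1 without the first B_cell, the second B_cell or the second DC library, and 0 without the first DC library. Processing genes were higher in DC in 6 of 10 cases, led by Cd9 (4.14), Ctsd (3.33) and Ctsb (3.22). Costimulation genes were higher in 5 of 6, led by Icosl (1.98), Cd80 (1.97) and Pdcd1lg2 (1.79). Regulators of Ciita were split, 5 higher with the interferon gamma receptor gene Ifngr1 (3.94) first, and 4 lower including Pax5 (-3.40) and Ebf1 (-3.16). Among the promoter factors Zxdc (2.22) and Rfxap (1.501) were higher and Nfyb lower (-1.46). Of the 12 B cell markers 6 were lower in DC, and all 12 monocyte and macrophage markers were higher. Dendritic cell markers were higher in 9 of 12 cases, erythroid markers in 7 of 10 (median 5.41), T cell markers in 8 of 12 (median 2.51) and megakaryocyte markers in 4 of 8 (median 2.80). Their part in the result was not tested.

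LT.HSC was compared with the mean of CMP, GMP, MEP and MkP, since stem cells are known to carry some class II. Ciita was higher in LT.HSC by 2.51 (SE 0.44, limma adjusted p = 7.95e-05), H2-Eb1 by 1.45 (SE 0.48, adjusted p = 0.0148) and H2-Aa by 1.39 (SE 0.50, adjusted p = 0.0246). The other 5 members were not called, with Cd74 at 0.76 (adjusted p = 0.174) and H2-DMa at -0.07. Of all genes 52.4% were called, 32.9% as higher and 19.5% as lower, and 3 of 8 members called, all higher, is near the share called higher. The count was 1 without the second LT.HSC library, and with edgeR H2-Aa was at 1.00 (adjusted p = 0.0658). Costimulation genes were higher in LT.HSC in 5 of 6 cases, led by Cd86 (2.84), Cd274 (2.63) and Cd80 (1.66). Of the regulators 8 were higher and 2 lower, Irf8 (-4.96) and Ifngr1 (-2.62). Rfx5, a subunit of the X box factor, was higher by 1.83. Among the marker lists, mast cell and basophil markers were lower in LT.HSC in 7 of 8 cases (median -5.60) and monocyte and macrophage markers in 7 of 12 (median -1.80), with 2 of 12 higher. Stem cell markers were higher in 10 of 10 cases, neutrophil markers in 5 of 10, T cell markers in 5 of 12, and B cell and dendritic cell markers in 4 of 12 each. Their part in the result was not tested.

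The 4 progenitor types behind that mean did not share a level, and CMP stood apart. The pairs that follow were picked after the values were seen. CMP had more Cd74 than LT.HSC by 2.67 (adjusted p = 0.00234, 23.1% of genes called) and GMP had less by 2.68 (adjusted p = 0.000942, 41.7% called). From CMP to GMP, which is held to arise from it, 6 of 8 members were higher in CMP: H2-Eb1 by 5.43, Cd74 by 5.35, H2-Aa by 5.23, Ciita by 4.75, H2-Ab1 by 3.71 and H2-Ob by 2.15. Their adjusted p lay between 2.33e-06 and 0.000246 by limma, and 4.92% of all genes were called between these types, 3.37% as higher in CMP. H2-DMa (0.56, adjusted p = 0.483) and H2-DMb1 (0.29, adjusted p = 0.831) were not called. Against MEP, all 8 members were higher in CMP, by 2.39 for H2-DMa to 4.88 for H2-Aa, where 17.4% of genes were called, 11.7% as higher in CMP. Summed dendritic cell markers were 1723 and 1806 in CMP, 1184 and 976 in GMP and 1115 and 1208 in MEP. Summed B cell markers were lower in CMP (8552 and 8770) than in GMP (20645 and 14586), while summed monocyte and macrophage markers were 22837 and 12828 against 103443 and 45451. From MEP to Erythroid the classical chains were higher again, with H2-Eb1 up by 5.23 (limma adjusted p = 4.24e-07) and Cd74 by 4.39 (adjusted p = 3.47e-06). Of all genes 33.7% were called there. The top 10 genes held 52.2% and 58.8% of Erythroid reads. As a share of reads the members together were at 0.107% and 0.0635% in Erythroid against 0.0388% and 0.0308% in MEP, so the size of these differences depends on the scaling. In Erythroid, monocyte and macrophage markers summed to 38484 and 39472, against 140 and 106 in MEP, and their part was not tested.

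Monocyte and Neutrophil, sister myeloid types, differed in all 8 members, each higher in Monocyte. H2-Aa was higher by 4.27 (SE 0.64, limma adjusted p = 8.17e-05), Cd74 by 3.47 (SE 0.59, adjusted p = 0.000287), H2-Eb1 by 3.36 and H2-Ab1 by 3.07. Ciita (2.19), H2-DMa (1.53), H2-DMb1 (1.31) and H2-Ob (1.06) followed. Both Monocyte libraries lay above both Neutrophil libraries for each, a separation not counted over all genes. Of all genes 21.3% were called, 10.9% as higher and 10.4% as lower. These shares rest on 1877 higher and 1783 lower genes, and they were 2324 and 1344 with upper quartile scaling and 982 and 1440 with edgeR, so the balance moved with the scaling while the 8 members stayed higher. The count was 5 without the first Neutrophil library and 5 with edgeR on recovered reads, where Ciita, H2-DMb1 and H2-Ob were not called. Reads of a few genes fill these libraries. As a share of reads the members together were at 0.0550% and 0.0793% in Monocyte against 0.0498% and 0.0382% in Neutrophil. On the normalised scale 1 read stood for 7.97 and 11.6 in the Monocyte libraries and for 1.25 and 1.45 in Neutrophil. H2-Ob (87.6 and 57.8) and Ciita (39.8 and 34.7) in Monocyte thus came from few reads. As shares of reads, H2-DMa, H2-DMb1 and H2-Ob were not higher in Monocyte, so their direction rests on the size factors. The cysteine protease gene Ctss (2.33) led the 5 of 10 processing genes that were higher, while the promoter factors Rfxap (-2.37) and Zxdc (-2.10) were lower. B cell markers were higher in Monocyte in 6 of 12 cases, neutrophil markers in 8 of 10 and mast cell and basophil markers in 8 of 8 (median 5.27). Monocyte and macrophage markers were higher in 4 of 12, and erythroid markers were lower in 7 of 10 (median -2.77). Their part in the result was not tested.

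The m6A enrichment of a transcript, its log2 IP minus log2 input value, was taken for each pair of libraries with the same type and number. The tables were scaled separately, so only differences between types can be tested, and values below 0 mean less signal in the IP than in the input on this scale. The median gene lay between -0.07 in CD8 and 0.66 in Monocyte. Cd74 and H2-DMb1 were below 0 in both library pairs of all 16 types. Cd74 lay between -0.26 and -4.94 and was lowest in B_cell (-2.80 and -4.94). DC, next in Cd74 level, had -1.44 and -1.08. H2-DMb1 lay between -0.58 and -5.46, lowest in LMPP (-2.90 and -5.46) and LT.HSC (-4.61 and -2.30). H2-Ab1 was below 0 in both pairs of 13 types, H2-DMa of 10, and H2-Aa and H2-Eb1 of 9. H2-Aa (-2.16 and -2.96) and H2-Eb1 (-2.01 and -3.45) also had their lowest mean in B_cell. H2-Ob lay on both sides of 0, from -0.99 to 1.88, with both pairs below 0 in 5 types and above in 3.

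Ciita had IP signal above input in both pairs of 12 types, against 0 to 3 types for the other members. The median gene also lay above 0 in every type but CD8 (-0.07) and LMPP (0). The share of all genes on either side of 0 was not counted, so these counts of types only describe the members. It reached 3.09 and 2.33 in Neutrophil and 2.91 and 1.41 in MkP, where its input level was low, and 1.73 and 1.53 in B_cell. DC had 0.61 and 0.96. It fell below 0 in both pairs of CD8 (-3.41 and -2.86). In LT.HSC its values were -4.11 and 1.18, a gap of 5.29 between replicates.

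No member was called for a difference in enrichment among the 16 types, where 23.5% of 17462 genes were called by the limma F test. At an unadjusted p under 0.05 there were 2 members, Ciita (adjusted p = 0.0701) and Cd74 (adjusted p = 0.126). With the inputs as deposited and the IP scaled by total count, all 8 were called, as were 11072 genes. Leaving out 1 library called 3 members without the first LMPP IP library and 1 or 2 without 6 others, the second MkP input and the first CD8, second LMPP, first MkP and both LT.HSC IP libraries. Between DC and B_cell 0 members and 1.24% of genes were called (217 genes, and 23 to 1020 when 1 library was left out), with Cd74 at 2.61 (SE 0.87, limma adjusted p = 0.114), H2-Aa at 2.14 (adjusted p = 0.254) and H2-DMa at 1.499 (adjusted p = 0.310) as the 3 with unadjusted p under 0.05. Between LT.HSC and the mean of B_cell and DC 0 members and 6.61% of genes were called (1154 genes, and 438 to 3233 when 1 library was left out). There H2-Eb1 was at 2.44 (SE 0.95, limma adjusted p = 0.115), Ciita at -2.67 (SE 1.18, adjusted p = 0.174) and H2-DMb1 at -1.95 (adjusted p = 0.207), again the 3 with unadjusted p under 0.05. Without the first B_cell IP library 1 member was called in the former comparison, and without the second LT.HSC IP library 3 were in the latter.

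**Figure D2:**
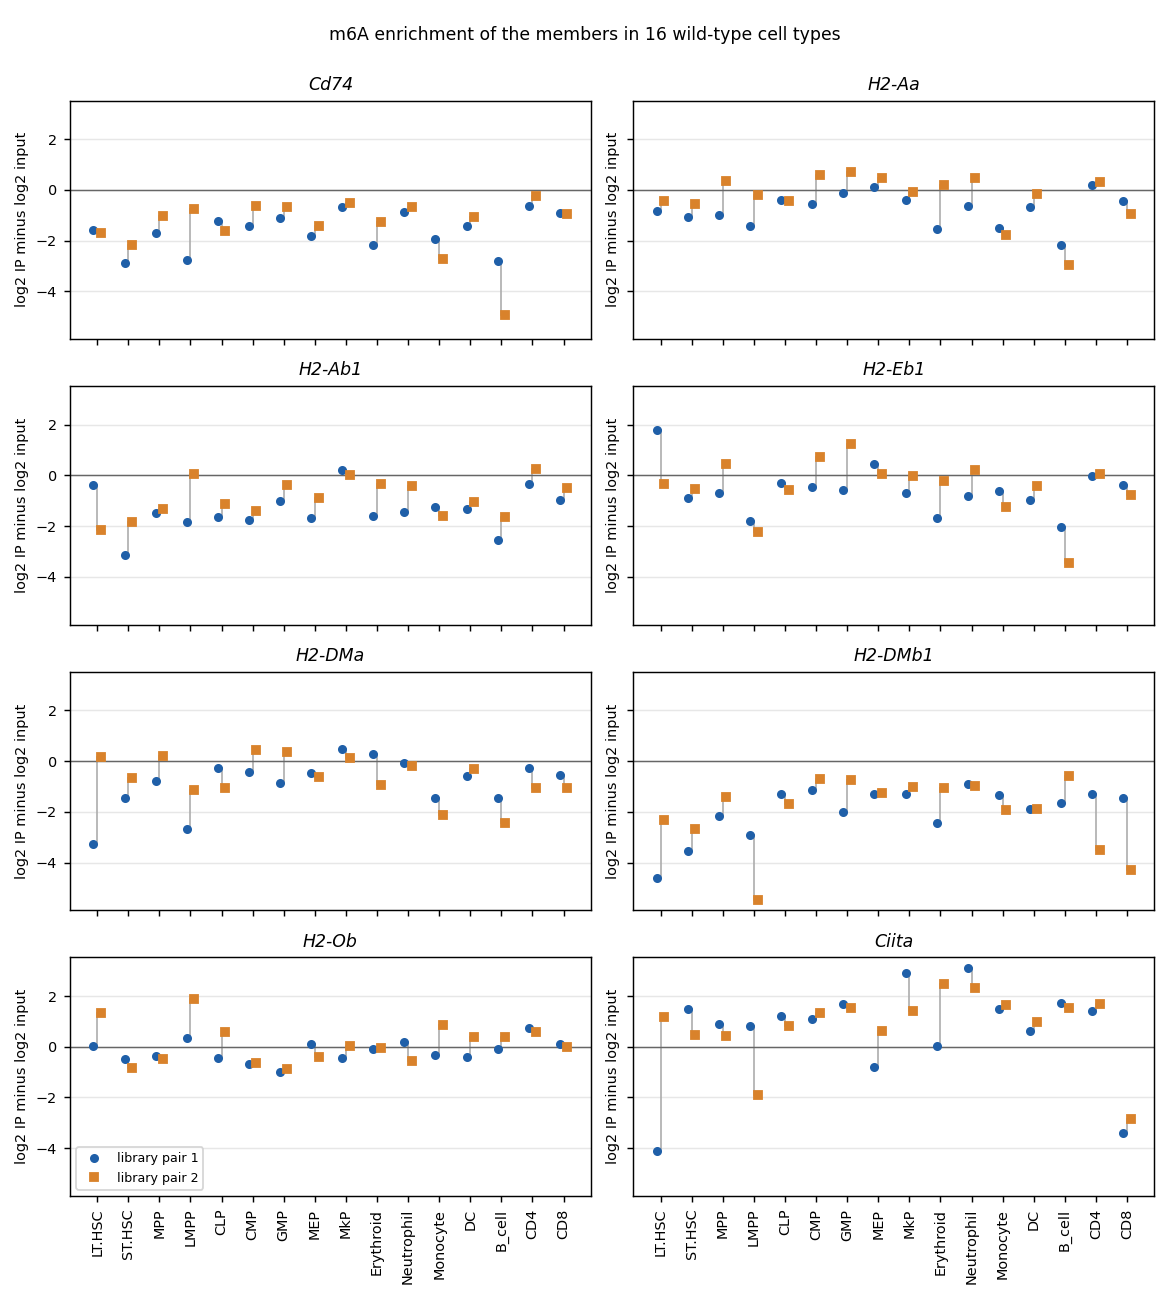
m6A enrichment, log2 IP minus log2 input after scaling within each table, of each member in 16 wild-type cell types, with library pair 1 as circles and pair 2 as squares. Cd74 and H2-DMb1 points all lie below 0, and Ciita points lie above 0 in both pairs of 12 types with a wide gap in LT.HSC.

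In the Mettl3 set the targeted gene itself stood at 274 to 931 in the 14 inputs labelled knockout and at 127 to 656 in those labelled wild type, apart from 5370 in the first LT.HSC library. Which part was deleted is not in the labels, so these values do not check the genotypes. Averaged over the 7 types, Cd74 was higher in the knockout by 1.66 (SE 0.53, limma adjusted p = 0.0477) and H2-DMb1 by 0.80 (SE 0.20, adjusted p = 0.0136). H2-Eb1 (1.29, adjusted p = 0.176), H2-Aa (1.23, adjusted p = 0.162), H2-Ab1 (1.01, adjusted p = 0.159), Ciita (0.53), H2-DMa (0.33) and H2-Ob (-0.20) were not called. Of 15030 genes 10.1% were called, 7.24% as higher and 2.89% as lower. The fit took all libraries as independent. In these inputs same-numbered libraries of different groups deviated together (r over 0.1) in 56 of 91 pairs, and the p-values of the fit do not allow for that. The libraries behind this mean did not agree, and the following values show where.

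Knockout libraries numbered 2 carried the high class II levels. In CMP Cd74 was at 984 in the first and 31170 in the second knockout library, against 1350 and 1278 in the wild type. In MPP it was at 1929 and 14651 against 1734 and 335, in GMP at 774 and 5854 against 243 and 421, in MkP at 102 and 2787 against 194 and 42.0, and in MEP at 699 and 2240 against 349 and 158. LT.HSC (424 and 630 against 944 and 1250) and ST.HSC (2398 and 1046 against 1751 and 1204) showed no such step. For Cd74, 5 of the 7 second knockout libraries lay above all 14 wild-type libraries, and 2 of the 7 first ones.

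The classical chains repeated this pattern library by library. H2-Aa was at 292 and 8039 in knockout CMP, 454 and 3970 in MPP, 147 and 1602 in GMP, 15.8 and 880 in MkP and 153 and 611 in MEP, with wild-type libraries between 32.7 and 932. H2-Ab1 reached 33552 in the second CMP library against 1486 in the first, and H2-Eb1 4402 against 86.5. For each of Cd74, H2-Aa, H2-Ab1 and H2-Eb1 the second library was over 2 times the first in 5 of 7 knockout types, and in 0 to 2 of 7 wild-type types. These counts leave out steps down, and steps were not counted over all genes. For Cd74 the second wild-type library was at 0.193 times the first in MPP, 0.216 in MkP and 0.453 in MEP. For H2-Eb1 it was at 0.0728 times in MkP. In knockout ST.HSC the second library was at 0.436 times the first for Cd74. The steps for H2-DMb1 were smaller, with 820 and 2518 in CMP and 1160 and 2508 in MPP, and H2-DMa stayed between 773 and 4444. H2-Ob did not follow, at 166 and 273 in CMP and 379 and 340 in MPP. Ciita was higher in the second knockout library of all 7 types, at 6.27 and 29.1 in CMP, 4.73 and 19.8 in GMP, 12.4 and 30.8 in MPP and 0 and 21.4 in MEP, yet it never exceeded the highest wild-type library (45.9).

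The same levels can be put as differences by library number. These splits were made after the values were seen, so they restate the levels above and are no test. Cd74 differed by 0.11 among libraries numbered 1 in both genotypes and by 3.21 among those numbered 2. The latter difference also takes in the low second wild-type libraries of MPP, MkP and MEP. Without the second knockout libraries of CMP, GMP, MPP and MkP, which were picked for their high class II levels, Cd74 differed by 0.55. H2-DMb1, at 0.80 in the full fit, differed by 0.51 among libraries numbered 1 and by 0.55 without those second knockout libraries. A fit on 1 mean per genotype and number called 0 members and 1 gene. In the 28 fits that left out 1 library H2-DMb1 differed by 0.68 to 0.91. Such a fit cannot undo a step shared by several second knockout libraries. Cd74 was called in 9 of these 28 fits, without the first knockout CMP, GMP, MEP, MPP or MkP, the second knockout ST.HSC, the first wild-type MPP or MkP, or the second wild-type LT.HSC library. With edgeR 4 members were called, H2-Aa (1.88) and H2-Ab1 (1.44) beside Cd74 and H2-DMb1. The number of all genes called with edgeR stayed within 1.5 times that of the main fit.

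**Figure D3:**
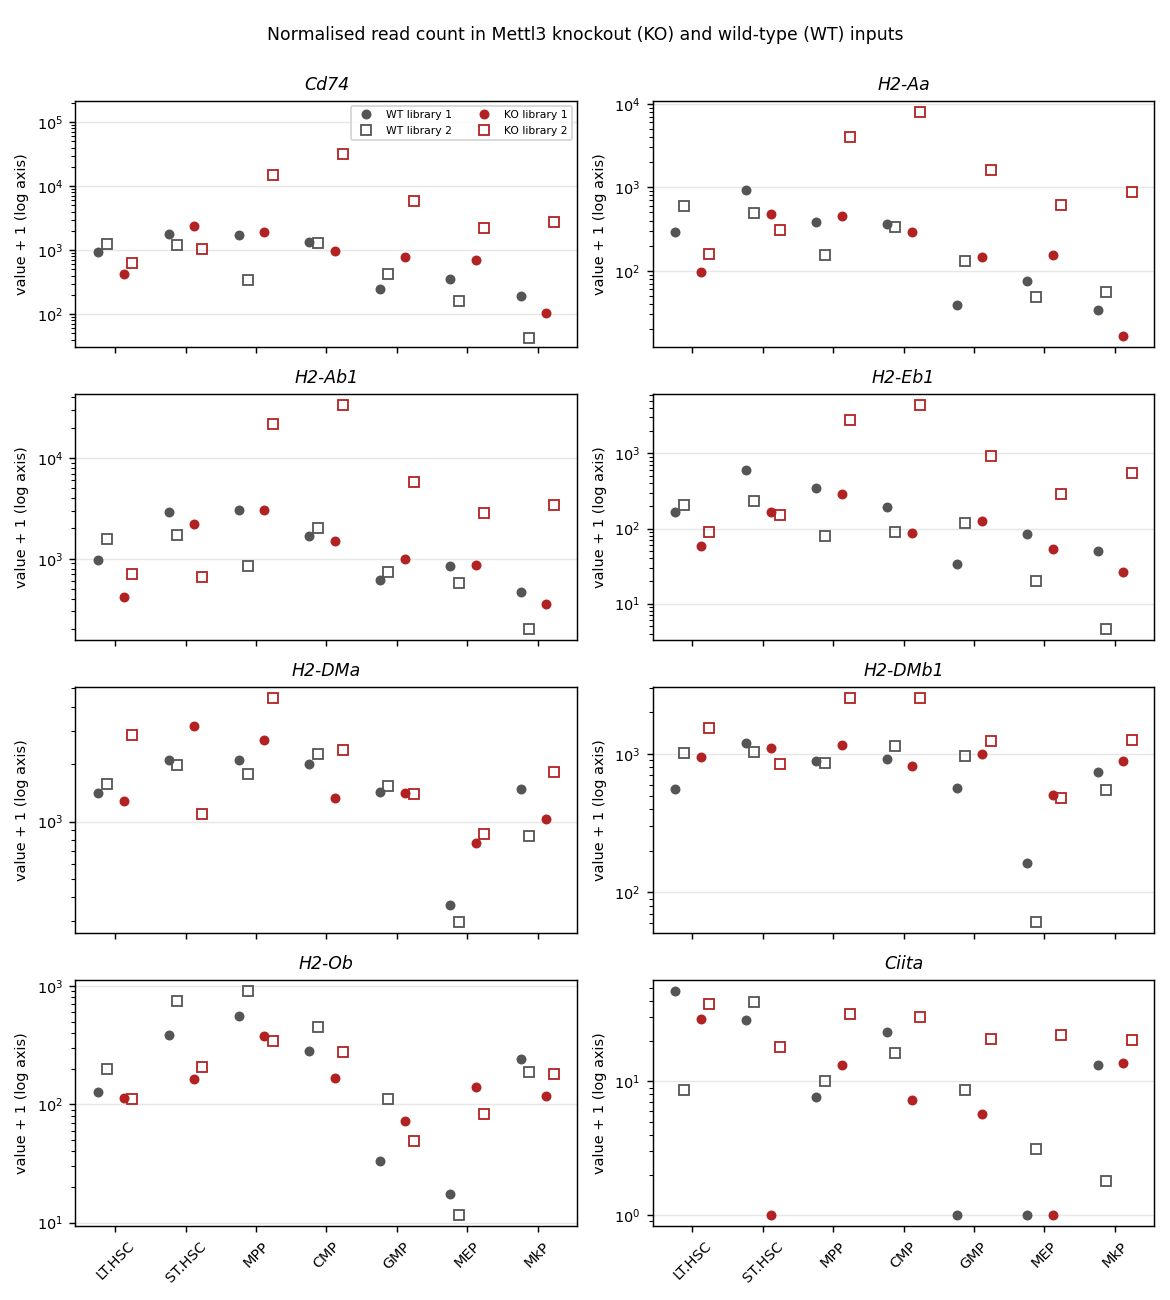
Normalised read count plus 1 (log axis) of each member in the Mettl3 set, wild type in grey and knockout in red, with library 1 as filled circles and library 2 as open squares, by cell type. The open red squares of CMP, MPP, GMP, MEP and MkP lie above the other points of their type for Cd74 and the classical chains, and those of LT.HSC and ST.HSC do not.

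Markers of other class II bearing cells were read in the same libraries. In knockout CMP the B cell markers summed to 4311 in the first and 1988 in the second library, the dendritic cell markers to 1034 and 1325, and the monocyte and macrophage markers to 9526 and 6468, while the members summed to 5179 and 82346. Among single genes, the dendritic cell integrin gene Itgax was at 7.52 and 5.13 there and the B cell gene Ms4a1 at 0.627 and 4.27. Csf1r, the macrophage growth factor receptor, was at 478 and 122. Itgax and Ms4a1 had low values and moved against the dendritic cell and B cell sums, while Csf1r fell with the monocyte and macrophage sum. These genes were picked from longer lists, so they only describe the libraries, and nothing is read from them. In knockout MPP the B cell sum was 6734 and 74494, of which Ighm made up 5408 and 72825, and monocyte and macrophage markers summed to 5779 and 22603. In GMP, MEP and MkP the B cell sums of the second library were 1739, 534 and 1183. Over the 7 types the dendritic cell sum was 462 to 1236 in first and 694 to 1730 in second knockout libraries, against 452 to 3605 in the wild type. The class I presentation genes also differed by library number, with medians of 105224 in first and 192951 in second knockout libraries against 85967 and 87022 in the wild type. Neutrophil markers had medians of 888 and 2054 in first and second knockout libraries, and 1237 and 218 in the wild type. Their part in the result was not tested.

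**Figure D4:**
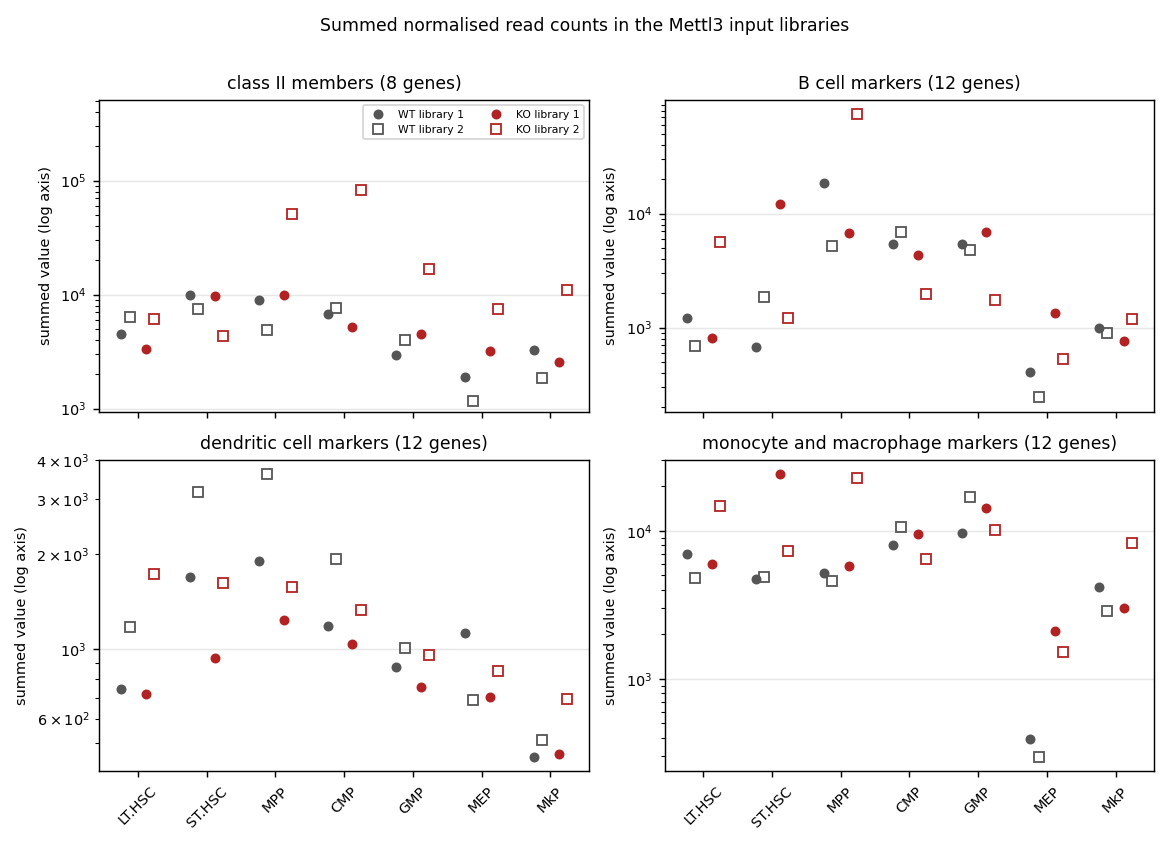
Summed normalised read counts (log axis) of the 8 members and of the B cell, dendritic cell and monocyte and macrophage marker lists in each Mettl3 input library, wild type in grey and knockout in red. The second knockout CMP library stands at 82346 for the members and at 1988 for the B cell markers, below the 4311 of the first.

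Around the members, class I presentation genes were higher in the knockout average in 6 of 14 cases, led by H2-D1 (1.10), H2-K1 (0.91) and the chaperone gene Calr (0.90). Of 10 processing genes 5 were higher, led by Cd63 (1.39), the endosomal thiol reductase gene Ifi30 (1.35) and Cd9 (1.14). H2-Oa was higher by 1.27 (limma adjusted p = 0.00926), from 14.8 to 340 in wild-type libraries and 75.7 to 1206 in knockout ones. None of the 8 promoter factors and 0 of 11 regulators of Ciita were called, with medians of -0.02 and 0.19 against -0.06 over all genes. Of the costimulation genes 1 of 6, Pdcd1lg2, was higher (1.93). Neutrophil (4 of 10) and mast cell and basophil markers (4 of 8) were higher too, and stem cell markers went both ways (5 higher and 2 lower of 10). Over all genes 7.24% were called as higher in this average and 2.89% as lower. With 1 mean per genotype and number 1 gene of all tested was called. The calls in these lists rest on the same libraries as those of the members.

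Within single types the knockout differed from the wild type in 2 of 56 member and type pairs, both in MEP, where 2.14% of genes were called, against 0.404% over all types. H2-Ob was at 138 and 81.2 in knockout MEP and 16.6 and 10.5 in wild type, higher by 2.91 (SE 0.58, limma adjusted p = 0.00604). H2-DMb1 was at 502 and 479 against 161 and 60.1, higher by 2.31 (SE 0.53, adjusted p = 0.0192). The groups did not overlap for either gene, but such separation was not counted over all genes and only describes the libraries. On the normalised scale 1 read stood for 2.46 and 4.28 in the knockout MEP libraries and for 2.77 and 1.05 in the wild type. The wild-type H2-Ob values thus came from few reads. The count was 0 without the first knockout or the second wild-type MEP library, 1 without the second knockout library, and 1 with edgeR. In the same libraries monocyte and macrophage markers summed to 2090 and 1518 in the knockout against 393 and 295, and megakaryocyte markers to 4013 and 3065 against 850 and 451. Their part was not tested. A difference in the knockout effect among types was called for 0 members (2 of 15030 genes, 0.0133%, by limma, and 0 genes by edgeR). At an unadjusted p under 0.05 there was 1 member, H2-Ob (adjusted p = 0.308), and 629 genes.

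The enrichment of the members in the Mettl3 set spread over a wide range in both genotypes. Cd74 lay between -3.74 and 0.03 in the 14 knockout pairs and between -1.74 and 0.81 in the wild type, with medians of -1.21 and -0.53. H2-DMb1 had medians of -1.84 and -0.86. Knockout minus wild type, averaged over types, was -0.85 for Cd74 (SE 0.84, limma adjusted p = 0.977), -0.88 for H2-DMb1 and -1.81 for H2-Ob (SE 0.94, adjusted p = 0.977). By limma 0 members and 0 of 15647 genes were called (0%), against 701 genes and 0 members at an unadjusted p under 0.05. A loss of m6A common to all transcripts is removed by the scaling. The first wild-type LT.HSC IP library had 94.2% of its counts in 10 genes, and the first wild-type ST.HSC IP library 75.8%. The knockout MEP IP libraries held 818993 and 2109490 counts, against 22918461 and 14411151 in the wild type.

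In the Igf2bp2 set Igf2bp2 itself was at 13.03 and 12.47 CPM (counts scaled to a common library total) in the LT.HSC libraries labelled knockout and at 7.11 and 53.5 in wild type, so its reads do not separate the labels. H2-DMb1 was at 140 and 155 CPM in the knockout and 68.8 and 85.2 in the wild type, a log2 difference of 1.31 (edgeR adjusted p = 0.684) with no overlap. Cd74 (134 and 96.1 against 91.3 and 33.3) and H2-DMa (157 and 116 against 111 and 49.0) also had both knockout libraries above both wild-type ones. Ciita was at 0.641 and 1.23 against 11.2 and 2.64, from 3 and 8 counts against 223 and 13, so its groups did not overlap, with the nearest libraries of the 2 groups at 8 and 13 counts. H2-Ab1, H2-Aa, H2-Eb1 and H2-Ob overlapped, and H2-Eb1 ranged from 0.214 to 11.4 within the knockout. Replicate libraries correlated across genes at r = 0.73 in the knockout and 0.79 in the wild type. Separation of the genotypes was not counted over all genes, so it describes the libraries and is not read as a result. By edgeR's quasi-likelihood test 0 members and 0 of 12221 genes (0%) passed, with 1 member and 777 genes at an unadjusted p under 0.05. DESeq2 called 94 genes and 0 members.

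New RNA was read as the share of T-to-C marked RNA after 3 h of labelling, a deposited ratio whose depth is unknown. Cd74 had 2.13% and 1.55% in MPP and 1.82% and 1.85% in CMP. H2-Aa had 2.37% and 1.96%, and 2.06% and 1.78%, in the same types. For Cd74, LT.HSC had 0.519% and 0.373% and ST.HSC 0.811% and 0.967%. The median of all genes ran alongside, at 1.22% and 1.26% in MPP, 0.941% and 0.948% in CMP, 0.579% and 0.244% in LT.HSC and 0.582% and 0.705% in ST.HSC. The shares of Cd74 lay above the median of all genes of their library in 11 of 12 libraries, those of H2-Ab1 and Ciita in 10, and those of H2-DMa in 0, at 0.00986% to 0.621%. H2-DMb1 lay above the median in 2 libraries, both of MEP, at 1.78% and 10.9%, and H2-Ob in 1. Pairs in GMP and MEP disagreed, for example 15.8% and 2.04% for Cd74 in GMP and 1.27% and 6.40% for H2-Aa in MEP. By the limma F test 0 members and 0 of 13909 genes (0%) differed among the 6 types, against 4 members and 1695 genes at an unadjusted p under 0.05. H2-Aa (adjusted p = 0.221), H2-DMb1 (0.226), Ciita (0.269) and Cd74 (0.366) were those 4.

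**Figure D5:**
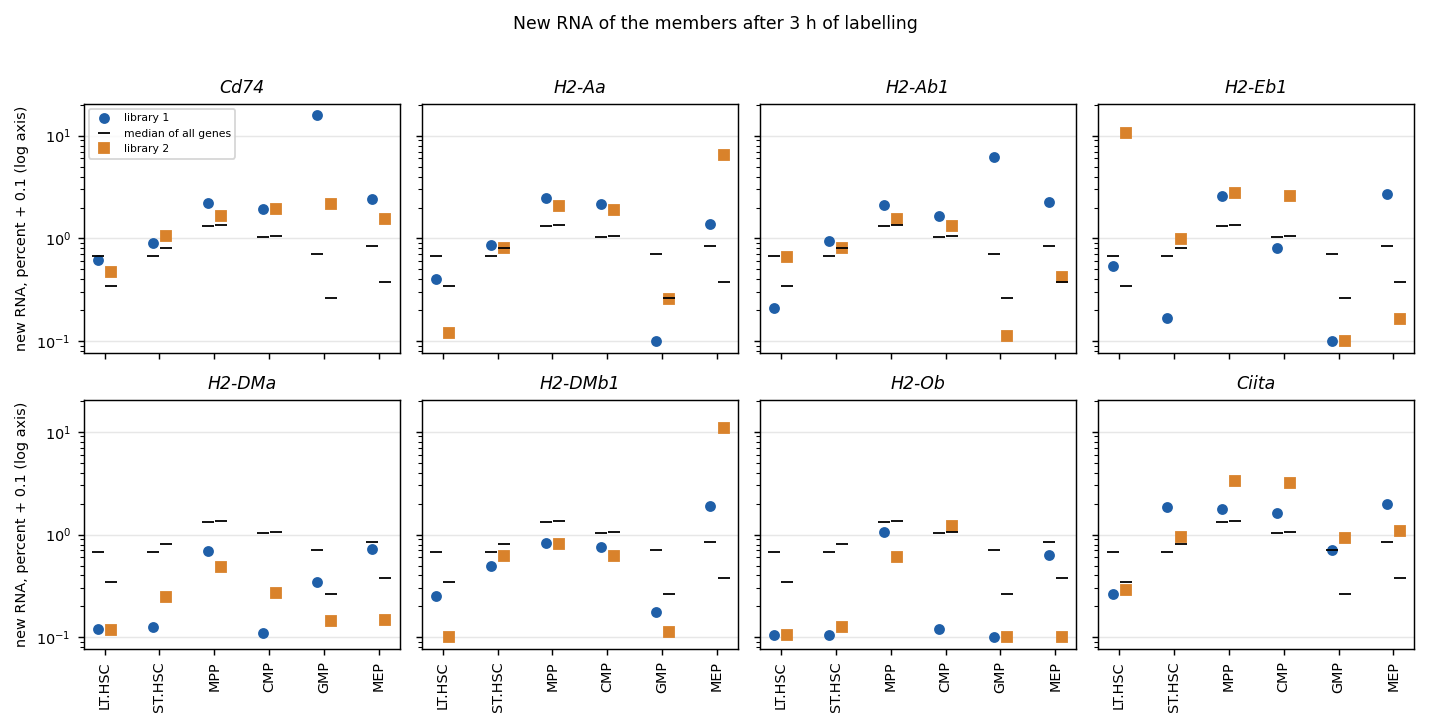
New RNA of each member, percent plus 0.1 (log axis), in the 2 libraries of 6 wild-type cell types after 3 h of labelling, with dashes for the median of all genes in each library. Points of H2-DMa lie below the dashes in all 12 libraries, and those of Cd74 above in 11.

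In the chase the deposited averages were sparse for these genes in LT.HSC, where H2-Ob had no value, Ciita had 1 of 7 times and H2-DMa and H2-DMb1 had 2. In MkP the marked share of Cd74 was 0.500% at 0.5 h, 0.386% at 1 h, 0.333% at 3 h, 0.232% at 6 h, 0.148% at 9 h, 0.0233% at 12 h and 0.120% at 24 h. It lay above the median of all genes at 6 of 7 times, which was 0.0697% at 0.5 h and 0.0157% at 9 h. H2-Ab1 in MkP was at 0.362% at 0.5 h, 0.153% at 6 h, 0.0155% at 12 h and 0.213% at 24 h, and H2-Aa at 0.228%, 0.120%, 0.0161% and 0.00976% at those times. For Cd74 each value up to 12 h was below the one before, while H2-Aa was higher at 1 h, at 0.287%. In MkP 2225 genes had a value at 12 h, against 6232 at 9 h and 4575 at 24 h, so the 12 h values come from sparser data. These single deposited values carry no replicate spread and allow no test, and the labels list 1 MkP library per chase time. In LT.HSC, Cd74 had between 0.0130% and 0.179% at 5 times, with no steady fall.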

How the data were processed

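RNA was measured in the groups described above. Upstream, kallisto, fastp, Trimmomatic and the build GRCm38 are listed in the submitters' processing notes, without roles or versions. Both input tables hold a normalised signal, gene counts that the authors divided by 1 size factor per library, per the values as deposited. The atlas IP and Igf2bp2 tables hold whole read counts as deposited. The Mettl3 IP table holds estimated counts as deposited, which were not rounded because no count test was run on them. New RNA is the authors' deposited fraction of T-to-C marked RNA per gene, shown here as a percent. The chase values are deposited under the name of averages, although the labels list 1 library per chase time for MkP.

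Inputs were tested on log2(value + 1) with limma 3.58.1 in R 4.3.3, over genes that reached 10 in 2 or more libraries, 1 fit per table. A fold change on this scale understates low genes. Enrichment used TMM scaling within each table (edgeR 4.0.16). The Igf2bp2 counts were tested with edgeR's quasi-likelihood test, with DESeq2 1.42.0 as the alternative. New RNA was tested on log2(percent + 0.1). Adjusted p-values are Benjamini-Hochberg over all genes tested. The steps of the input values gave whole reads, within 0.1, for 100% of values in every library, and edgeR was run on those reads as an alternative. Other alternatives were pseudocounts, filters, scaling, a replicate block and leaving out libraries. The scripts were tested on simulated data.

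The members and gene lists were chosen with earlier results of these data known. All 8 members are given in every table. Of each other list, the count called and up to 3 genes with the largest called change are named, plus marker genes set beside a result. Like genes are the 5 with the highest correlation to the members' mean profile and the nearest 1 to each member. Same-numbered libraries deviated together in some pairs of groups and not in others, and the numbers were not taken as pairs. In the Mettl3 inputs 56 of 91 pairs of groups did so (r over 0.1), and the main fit does not allow for it.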

Additional observations from a re-analysis of the deposited data

How the results depend on the processing

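The counts of members called that moved with a setting were 1 for DC minus B_cell with no filter on low values, 5 for Monocyte minus Neutrophil with edgeR, and 8 for enrichment across types with the inputs as deposited. For the Mettl3 mean of 7 types they were 1 with a pseudocount of 10, 1 with no filter, 4 with edgeR, 0 with 1 mean per genotype and number, 0 among libraries numbered 1, 6 among those numbered 2 and 0 without the second knockout libraries of CMP, GMP, MPP and MkP. The splits by library number and the fit without those 4 knockout libraries were chosen after seeing the data, so their values restate the levels of those libraries and are no test. Within types edgeR called 1 member. The cause of these moves was not tested. Values that reversed, none of them called in either fit, were, beside those from leaving out 1 library, H2-Ab1 in LT.HSC minus progenitors with edgeR (-0.038), and in the Mettl3 mean among libraries numbered 1 Ciita (-0.54), H2-Aa (-0.10), H2-Ab1 (-0.21), H2-Eb1 (-0.65) and H2-Ob (0.051). In Mettl3 enrichment with the inputs as deposited H2-Aa (0.40), H2-Ab1 (0.087) and H2-DMa (0.23) reversed, and H2-Aa (0.33) did so without LT.HSC and ST.HSC.

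Over all genes, calls moved by over 1.5 times from 3660 to 2422 with edgeR for Monocyte minus Neutrophil and from 4103 to 11072 for enrichment across types with the inputs as deposited. For enrichment in DC minus B_cell they went from 217 to 597 with a pseudocount of 10 and 774 with no filter, and for LT.HSC from 1154 to 1738 with that pseudocount. For the Mettl3 mean of 7 types they went from 1522 to 934 without LT.HSC, 4 and 3130 among libraries numbered 1 and 2, 249 without the 4 second knockout libraries and 1 with 1 mean per genotype and number. Within types they went from 425 to 166 with edgeR, 651 with the replicate block and 247 without those 4 libraries. For effects differing among types they went from 2 to 28 with no filter and 0 with edgeR and without those libraries. For Igf2bp2 they went from 0 to 94 with DESeq2, 44 with no filter and 8 with the replicate block. For new RNA they went from 0 to 12 with a pseudocount of 1% and 69 for genes above 0 in 1 library.

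Leaving out 1 library at a time gave 4 to 7 members for B_cell minus CLP, 0 to 1 for DC minus B_cell, 1 to 4 for LT.HSC minus progenitors, 5 to 7 for Monocyte minus Neutrophil, 0 to 3 for enrichment across types, 0 to 1 for enrichment in DC minus B_cell, 0 to 3 for that in LT.HSC, 1 to 4 for the Mettl3 mean and 0 to 2 within types. Over all genes the calls ranged from 23 to 1020 for enrichment in DC minus B_cell, 438 to 3233 for that in LT.HSC, 3282 to 6621 for that across types, 983 to 2770 for the Mettl3 mean and 202 to 2158 within types, so these background shares move with single libraries. Where leaving 1 out left a group with 1 library, that library is assumed to vary like the other groups. In B_cell minus CLP it moved H2-DMa from -0.36 to 0.032. In DC minus B_cell it moved H2-Ab1 from -0.033 to 1.61 and H2-Eb1 from -0.64 to 0.26. In LT.HSC minus progenitors it moved H2-DMa from -0.43 to 0.28 and H2-Ob from -0.83 to 0.43. In enrichment it moved H2-Ob in DC minus B_cell from -0.47 to 0.19, and in LT.HSC minus B_cell and DC it moved Ciita from -5.62 to 0.25, H2-Ab1 from -0.60 to 1.30 and H2-DMa from -1.81 to 1.07. In Mettl3 enrichment it moved H2-Aa from -0.78 to 0.0504 and H2-Eb1 from -0.0038 to 0.80. For Igf2bp2 it moved H2-Aa from -1.66 to 3.60, H2-Ab1 from -0.16 to 1.22, H2-Eb1 from -2.84 to 2.40 and H2-Ob from -1.76 to 0.40.

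With the replicate number as a block, 4 members were called by limma for enrichment across types, Cd74 (adjusted p = 0.0144), H2-Aa (0.0328), H2-Eb1 (0.0361) and Ciita (0.0478). The block called 1 for enrichment in DC minus B_cell, Cd74 (0.0364), and 1 for that in LT.HSC, H2-Eb1 (0.0162), and it lost Ciita in DC minus B_cell expression (0.0543). The block left 8, 6, 2, 3 and 8 members in the 5 atlas comparisons of expression, 2 in the Mettl3 mean and 2 within types. Same-numbered libraries of different groups correlated in their deviations at a median r of 0.003 in the atlas inputs (16 of 120 pairs over 0.1), 0.16 in the Mettl3 inputs (56 of 91) and 0.019 for Igf2bp2. Input and IP of one number did so at a median of 0.065 in the atlas (5 of 16) and 0.207 in the Mettl3 set (10 of 14). The numbers were not treated as pairs, although in the Mettl3 set many same-numbered libraries did deviate together. The call each block changed is not read as a weaker or stronger effect.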
